A study of Rattus norvegicus with 38 samples.

Results

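Crispld2, Fkbp5, Klf9, Anxa1, Cebpd and Sgk1, 6 genes known to be induced by glucocorticoid hormones, were followed in blood leukocytes of rats after a single dose of acetaminophen or methyl parathion. Acetaminophen is a pain reliever that injures the liver at high doses, and methyl parathion is an organophosphate insecticide that inhibits acetylcholinesterase. The genes were taken by name, as every probe whose annotation gives 1 symbol that is one of the 6. This found 1 probe for each of the 6 genes among 26857 gene probes, of which 6104 carried exactly 1 symbol. All 6 genes were among the 12805 probes that were tested.

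The rats were male CDF Fisher 344 animals of approximately 4 months, and 1 array was hybridised per rat. In the acetaminophen groups, rats that had received 1200 mg/kg were killed after 4, 12 and 24 h (n = 4 each) and after 168 h (n = 3). In the methyl parathion groups, rats that had received 15 mg/kg were killed at the same 4 times, with the same numbers of animals. Each chemical had its own vehicle rats (n = 4 each), which received the vegetable oil in which the chemicals were suspended. Both vehicle groups were killed at 24 h, so that 4, 12 and 168 h had no vehicle rats of the same hour, and effects of handling, hour or age at those times cannot be told apart from those of the chemical. All injections were intraperitoneal, all rats were killed by focused microwave irradiation of the head, and the blood was drawn from the heart. Total RNA depleted of globin mRNA came from white cells caught on a LeukoLOCK filter, was amplified into digoxygenin-labelled cRNA and was read by chemiluminescence on Applied Biosystems rat arrays.

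Glucocorticoids, in the rat mainly corticosterone, are released by the adrenal gland during stress and illness. They bind the glucocorticoid receptor Nr3c1, which waits in the cytoplasm in a complex with Hsp90 and its co-chaperones, and the bound receptor moves to the nucleus, where it raises some genes through DNA elements built from copies of AGAACA and lowers many inflammatory genes. In blood, the hormones are known to bring neutrophils into the circulation and to lower the number of circulating lymphocytes. Corticosterone itself was not part of the files used here.

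Values are log2 signals after quantile normalisation, and a change is the difference of 2 group means on that scale with its standard error (SE). A gene is said to have risen or fallen only where limma's p, adjusted by Benjamini-Hochberg over all 12805 probes, was under 0.05. Median raw signals were between 176.6 and 389.6 per array, 36.41 to 51.7% of the probes of an array exceeded a signal-to-noise ratio of 3, and replicate arrays correlated at 0.9088 to 0.9671. Markers of T cells, B cells, natural killer cells and neutrophils were above background in the vehicle rats, except Lcn2 of the neutrophil list and, in some methyl parathion vehicle rats, 1 T-cell marker. In bulk RNA, fewer cells of a type and less RNA per cell cannot be told apart. Rat 1 of the 4 h acetaminophen group stood apart from its group in several genes and in its B-cell markers, whose mean log2 level was 12.01 in that rat, 8.39 to 9.14 in the other 3 rats and 12.09 to 12.66 in the vehicle rats. Likewise rat 2 of the 12 h methyl parathion group had a T-cell marker level of 14.01, against 12.81 to 13.15 in the other 3 rats of that group and 14.11 to 14.55 in the vehicle rats. Changes called for any of the 6 genes against vehicle in those 2 groups are given with and without that rat.

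The regions upstream of the genes are shown because the receptor is known to act through short DNA elements. RefSeq (GRCr8) gave 7 windows for 5 of the 6 genes, of which Sgk1 had 3, and each window held 250 bases before to 50 bases after a transcript start. Cebpd had no window in that table. The 6-base motif AGAACA, which is TGTTCT on the other strand, occurred in 20.7% of the 33469 windows of all genes and in 1 of the 7 windows here, that of Crispld2, at positions -76 to -71 from the start. The palindrome of AGAACA and TGTTCT with 3 bases between them, and a looser form of GNACA and TGTNC with the same gap, were in none of the 7 windows on either strand, and they occurred in 0.0149% and 0.439% of all windows. The TATA motif TATAAA, found in 14.2% of all windows on either strand, was in the Anxa1 window at -46 to -41 and in 2 of the 3 Sgk1 windows. These are matches of letters within short windows, and elements farther away were not searched. In the 4 sequences below, written 5′ to 3′ on the strand of the gene, capitals mark TGTTCT in Crispld2 and TATAAA in Anxa1. The Crispld2 window is chr19:64978706-64979005 on the plus strand, that of Fkbp5 is chr20:6543506-6543805 on the minus strand, that of Klf9 is chr1:230126396-230126695 on the plus strand, and that of Anxa1 is chr1:227303683-227303982 on the minus strand. G and C made up 56.0% of the Crispld2 window, 77.0% of that of Fkbp5, 65.3% of that of Klf9 and 45.0% of that of Anxa1, beside a median of 51.7% over all windows.
Crispld2: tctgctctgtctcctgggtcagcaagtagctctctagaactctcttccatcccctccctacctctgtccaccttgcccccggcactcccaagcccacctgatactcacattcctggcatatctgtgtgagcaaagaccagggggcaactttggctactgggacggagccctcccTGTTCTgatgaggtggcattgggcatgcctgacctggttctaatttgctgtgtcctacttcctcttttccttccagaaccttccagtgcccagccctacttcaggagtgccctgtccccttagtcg
Fkbp5: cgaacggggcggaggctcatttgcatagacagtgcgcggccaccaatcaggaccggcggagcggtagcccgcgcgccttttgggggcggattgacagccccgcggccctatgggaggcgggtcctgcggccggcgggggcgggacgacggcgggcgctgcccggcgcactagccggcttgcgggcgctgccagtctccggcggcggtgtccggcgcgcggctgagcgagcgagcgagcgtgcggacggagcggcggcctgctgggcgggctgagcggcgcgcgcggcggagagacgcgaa
Klf9: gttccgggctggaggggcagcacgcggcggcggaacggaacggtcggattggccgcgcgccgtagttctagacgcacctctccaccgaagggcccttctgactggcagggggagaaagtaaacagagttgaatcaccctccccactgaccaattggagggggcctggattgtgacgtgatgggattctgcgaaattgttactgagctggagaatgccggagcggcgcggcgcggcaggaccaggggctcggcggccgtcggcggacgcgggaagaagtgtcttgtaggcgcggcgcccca
Anxa1: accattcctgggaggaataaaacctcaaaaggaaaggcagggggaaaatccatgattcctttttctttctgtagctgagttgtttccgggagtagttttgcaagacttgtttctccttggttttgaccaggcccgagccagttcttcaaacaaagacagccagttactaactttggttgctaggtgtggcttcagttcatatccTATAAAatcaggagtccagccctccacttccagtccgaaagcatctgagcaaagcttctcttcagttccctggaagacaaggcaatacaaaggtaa

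After acetaminophen, Crispld2, Fkbp5 and Klf9 rose within 4 h, and at 12 and 24 h all of the genes except Klf9 were above vehicle, while Klf9 was below it. At 12 and 24 h Crispld2, Anxa1 and Cebpd stood 5.45-fold to 91.2-fold above vehicle, and Fkbp5 and Sgk1 1.78-fold to 2.78-fold. At 168 h none of the 6 genes passed the threshold. In counts, 3 of the 6 genes rose at 4 h, where limma called 6.58% of all tested probes in either direction. When the fit used only the arrays of the groups compared, none of these 3 calls passed (adjusted p 0.0796 to 0.136). In that fit no tested probe of any gene passed at 4 h. At 12 h 5 rose and 1 fell (34.3% of all probes were called), at 24 h 5 rose and 1 fell (35.6%), and at 168 h 0 were called (11.1%, with 3658 probes at an unadjusted p under 0.05). The values of the treated and the vehicle rats did not overlap for 1 gene at 4 h, all 6 at 12 h, all 6 at 24 h and 3 at 168 h, beside 11.8%, 38.3%, 37% and 27.5% of all tested probes. The median change of the 6 genes was 0.73, 2.07, 1.96 and 0.28 at 4, 12, 24 and 168 h, beside medians of -0.0313, -0.0315, -0.0636 and -0.0614 over all tested probes.

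After methyl parathion fewer of the genes moved, and mainly at 12 h. Crispld2, Anxa1, Cebpd and Sgk1 rose at 12 h, Sgk1 alone at 24 h, and Klf9 and Sgk1 at 168 h. At 4 h 0 of the 6 genes and 0% of all probes were called (1371 probes had an unadjusted p under 0.05). The 4 genes that rose at 12 h stand beside 8.04% of all probes called. With only the arrays of the groups compared in the fit, none of the 4 passed (adjusted p 0.0641 to 0.0771), nor did any other tested probe. The 1 gene called at 24 h stands beside 2.38% of all probes, and the 2 genes at 168 h beside 18.2%. Groups did not overlap for 0, 1, 1 and 2 of the genes at 4, 12, 24 and 168 h, beside 8.28%, 11.1%, 6.87% and 28.2% of all tested probes. The median change of the 6 genes was 0.21, 1.08, 0.46 and 0.59 at these times, beside medians of -0.0127, -0.0766, -0.0586 and -0.0824 over all probes. Between the vehicle groups of acetaminophen and methyl parathion, 0 of the 6 genes and 0% of all probes were called, with adjusted p between 0.728 and 0.938 for the 6 genes and 1378 probes at an unadjusted p under 0.05.

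**Figure D1:**
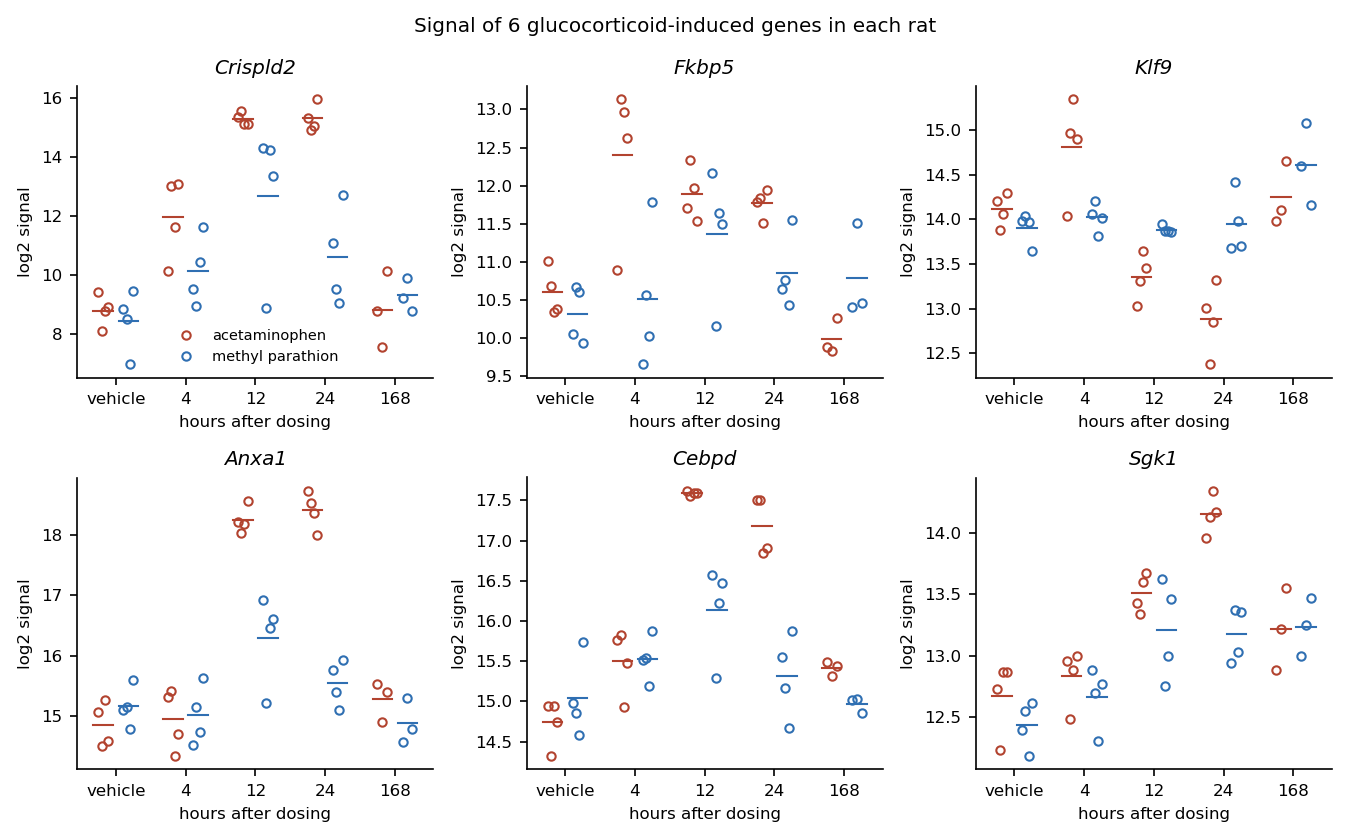
Log2 signal of each of the 6 genes in every rat, 1 panel per gene, with the groups of acetaminophen and methyl parathion in order of time and the vehicle rats (killed at 24 h) at the low end; points are rats and horizontal bars are group means. The acetaminophen rats of 12 and 24 h lie apart from their vehicle rats in all 6 panels, above them except for Klf9, whereas rat 2 of the 12 h methyl parathion group lies near its vehicle rats for most genes.

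Fkbp5 encodes a co-chaperone that binds the receptor's Hsp90 complex and lowers its affinity for hormone, and its own induction by the receptor is known as a feedback loop. At 4 h after acetaminophen, Fkbp5 read 10.89, 13.13, 12.97 and 12.62 in the 4 treated rats, against 11.01, 10.68, 10.35 and 10.38 in the vehicle rats. Rats 2, 3 and 4 were above every vehicle rat and rat 1 lay among them. The change was 1.80 ± 0.409 (SE; 3.49-fold, adjusted p = 0.00701), and without rat 1 it was 2.31 (adjusted p = 8.17e-05), while without rat 3 the call was lost (adjusted p = 0.0562). At 12 h the treated rats read 11.70, 12.33, 11.97 and 11.53, and at 24 h they read 11.78, 11.83, 11.51 and 11.94, so that all 8 of these rats lay above all vehicle rats. Fkbp5 was 2.43-fold higher than in vehicle rats at 12 h (adjusted p = 0.0134) and 2.24-fold higher at 24 h (adjusted p = 0.0241). Leaving out rat 2 of the 12 h group ended the call of that hour (adjusted p = 0.0508), and leaving out rat 4 of the 24 h group or vehicle rat 3 or 4 ended that of 24 h (adjusted p = 0.0565, 0.0624 and 0.0626). The mean was highest at 4 h among all 10 groups, but the step from 4 to 12 h was -0.52 ± 0.409 (adjusted p = 0.401), and -1.02 without rat 1 of the 4 h group (adjusted p = 0.0465).

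At 168 h after acetaminophen Fkbp5 read 9.88, 9.83 and 10.26, all below the lowest vehicle rat, at a change of -0.61 ± 0.442 (95% confidence interval -1.51 to 0.29, adjusted p = 0.37) that did not pass. From 24 to 168 h Fkbp5 fell by 1.78 on the log2 scale (SE 0.442, adjusted p = 0.00152). After methyl parathion it read 12.16, 10.17, 11.64 and 11.50 at 12 h, against 10.06, 10.67, 10.61 and 9.94 in the vehicle rats. Rats 1, 3 and 4 were above the vehicle rats and rat 2 was not, and the change of 1.05 ± 0.409 (adjusted p = 0.106) passed without rat 2 (1.45, adjusted p = 0.0144) and with array weights (adjusted p = 0.018), within a range of 0.0144 to 0.34 over all alternatives. At 4 h one methyl parathion rat, rat 4, read 11.79, above the other 3 at 9.66 to 10.57. The changes at 4, 24 and 168 h were 0.19, 0.53 and 0.47, with adjusted p of 0.915, 0.558 and 0.477.

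Klf9 encodes a Krüppel-like transcription factor that represses many of its targets. At 4 h after acetaminophen Klf9 read 14.03, 14.97, 15.34 and 14.90, against 14.21, 13.88, 14.06 and 14.30 in the vehicle rats. The same 3 of 4 rats as for Fkbp5 stood above all vehicle rats. The rise of 0.70 ± 0.216 (1.63-fold, adjusted p = 0.0445) was near the threshold, reached 0.96 without rat 1 (adjusted p = 0.00143), and was not called when any one of the other 3 treated rats or of the 4 vehicle rats was left out (adjusted p 0.0675 to 0.242). At 12 h the direction was the opposite: Klf9 read 13.03, 13.31, 13.65 and 13.45, and at 24 h 13.01, 12.38, 12.85 and 13.33, all below every vehicle rat. Klf9 was 1.69-fold lower than in vehicle rats at 12 h (change -0.75 ± 0.216, adjusted p = 0.00596) and 2.33-fold lower at 24 h (-1.22 ± 0.216, adjusted p = 2.27e-05). When arrays were only centred on their medians, the change at 4 h and that at 12 h were not called (adjusted p = 0.293 and 0.061). The fall between 4 and 12 h was -1.45 ± 0.216 (adjusted p = 3.54e-06), and between 24 and 168 h Klf9 rose by 1.36 ± 0.234 (adjusted p = 1.59e-05), to 13.99, 14.10 and 14.66 in the 3 rats.

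After methyl parathion Klf9 was not called up to 24 h. Its changes were 0.11, -0.02 and 0.04 at 4, 12 and 24 h (adjusted p = 0.901, 0.968 and 0.961), with group means of 14.02 ± 0.161, 13.89 ± 0.0452 and 13.95 ± 0.347 (SD, n = 4 each) and a vehicle mean of 13.91 ± 0.176 (SD, n = 4). At 168 h it read 14.59, 15.08 and 14.16, all above the vehicle rats at 13.98, 14.03, 13.97 and 13.65. That rise of 0.70 ± 0.234 (1.63-fold, adjusted p = 0.0332) was not called without rat 1 or rat 2 of the 168 h group or vehicle rat 4 (adjusted p = 0.0669, 0.235 and 0.0937), nor after median centring (adjusted p = 0.175) or without the detection filter (adjusted p = 0.0606).

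Cebpd encodes CCAAT/enhancer binding protein delta, a transcription factor of acute-phase and myeloid genes. Its level 4 h after acetaminophen was 15.76, 15.83, 14.93 and 15.48, against 14.94, 14.32, 14.95 and 14.75 in the vehicle rats. Rats 1, 2 and 4 lay above all vehicle rats, and rat 3 lay just under the highest of them. The change of 0.76 ± 0.25 missed the threshold (adjusted p = 0.059), and with array weights it passed (adjusted p = 0.00601), within a range of 0.00601 to 0.308 over all alternatives. At 12 h the 4 rats read 17.62, 17.56, 17.60 and 17.60, the narrowest spread of Cebpd in any group (SD 0.0257), and at 24 h they read 17.50, 17.51, 16.84 and 16.90. The rise over vehicle was 7.22-fold at 12 h (2.85 ± 0.25, adjusted p = 1.43e-10) and 5.45-fold at 24 h (2.45 ± 0.25, adjusted p = 1.27e-09). At 168 h Cebpd read 15.49, 15.31 and 15.44, still above every vehicle rat, with a change of 0.67 ± 0.27 that did not pass (adjusted p = 0.0955), though it did with only the arrays compared in the fit (adjusted p = 0.0255), within a range of 0.0255 to 0.507 over all alternatives.

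In methyl parathion rats Cebpd read 16.57, 15.29, 16.23 and 16.47 at 12 h, against 14.98, 14.85, 14.58 and 15.74 in vehicle rats. Rats 1, 3 and 4 were above all vehicle rats and rat 2 was not. Cebpd rose 2.15-fold (1.10 ± 0.25, adjusted p = 0.00751), or 1.39 on the log2 scale without rat 2 (adjusted p = 0.00018), and the call ended without rat 1 (adjusted p = 0.0511). The changes at 4, 24 and 168 h were 0.50, 0.28 and -0.07 (adjusted p = 0.476, 0.629 and 0.887).

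Sgk1 encodes a serum- and glucocorticoid-regulated kinase that acts on ion channels and on FOXO factors. At 4 h after acetaminophen it read 12.96, 12.49, 12.88 and 13.00, against 12.73, 12.23, 12.86 and 12.87 in vehicle rats, and the 2 groups overlapped (0.16 ± 0.179, adjusted p = 0.638). At 12 h it read 13.43, 13.34, 13.60 and 13.67, and at 24 h 13.96, 14.13, 14.34 and 14.17. Every 12 h rat was above every vehicle rat, and every 24 h rat was above every 12 h rat. Sgk1 rose 1.78-fold at 12 h (0.83 ± 0.179, adjusted p = 0.00032) and 2.78-fold at 24 h (1.47 ± 0.179, adjusted p = 3.77e-08). Between 12 and 24 h it was the only one of the 6 genes called (0.64 ± 0.179, adjusted p = 0.0217), a call lost without rat 1 or 2 of the 12 h group or rat 3 of the 24 h group (adjusted p = 0.0668, 0.0805 and 0.0787). At 168 h Sgk1 read 12.88, 13.22 and 13.55, all above the vehicle rats, with a change of 0.54 ± 0.193 (adjusted p = 0.0623) that did not pass. It passed without rat 1 of that group (adjusted p = 0.0311) and with all 8 vehicle rats as controls (0.66, adjusted p = 0.00894). Of 16 alternatives 3 called this change, within a range of adjusted p of 0.00894 to 0.807.

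Sgk1 had the most calls of the 6 genes after methyl parathion. It read 13.62, 12.75, 12.99 and 13.46 at 12 h and 12.94, 13.37, 13.03 and 13.35 at 24 h, against 12.40, 12.55, 12.19 and 12.62 in the vehicle rats. All 8 of these treated rats lay above all 4 vehicle rats. At 168 h it read 13.00, 13.25 and 13.47, again without overlap. The rises were 1.7-fold at 12 h (0.77 ± 0.179, adjusted p = 0.00843), 1.67-fold at 24 h (0.74 ± 0.179, adjusted p = 0.0251) and 1.74-fold at 168 h (0.80 ± 0.193, adjusted p = 0.00468). The 24 h call was lost without any one of rats 2, 3 and 4 of that group (adjusted p = 0.0534, 0.0593 and 0.122) or of vehicle rats 1, 2 and 3 (adjusted p = 0.0838, 0.066 and 0.0617), the 12 h call was lost without rat 1 (adjusted p = 0.0602) and its change was 0.92 without rat 2 (adjusted p = 0.000735), and after median centring none of the 3 calls passed (adjusted p = 0.22, 0.349 and 0.149 at 12, 24 and 168 h). With only the arrays compared in the fit, the 24 h call was lost too (adjusted p = 0.157).

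Anxa1 encodes annexin A1, a phospholipid-binding protein abundant in neutrophils and monocytes that limits inflammation. It was not called 4 h after acetaminophen, with 15.32, 15.43, 14.35 and 14.71 in treated rats, against 15.07, 14.51, 15.26 and 14.59 in vehicle rats (0.09 ± 0.285, 95% confidence interval -0.48 to 0.67, adjusted p = 0.882). By 12 h it read 18.22, 18.03, 18.18 and 18.57, and at 24 h 18.73, 18.54, 18.37 and 17.9996. Both groups were more than 2 log2 units above every vehicle rat. Anxa1 was 10.5-fold higher than in vehicle rats at 12 h (3.39 ± 0.285, adjusted p = 6.43e-11) and 11.7-fold higher at 24 h (3.55 ± 0.285, adjusted p = 7.36e-12). From 24 to 168 h it fell by 3.13 on the log2 scale (SE 0.307, adjusted p = 7.83e-10), to 15.54, 14.90 and 15.41. After methyl parathion Anxa1 rose at 12 h only, with 16.92, 15.22, 16.46 and 16.61 in treated rats, against 15.11, 15.15, 14.79 and 15.60 in vehicle rats. Rat 2 lay among the vehicle rats, and the 2.2-fold rise (1.14 ± 0.285, adjusted p = 0.0131) was 1.50 on the log2 scale without it (adjusted p = 0.000213). The call was lost without rat 1 or rat 4 (adjusted p = 0.0814 and 0.0587) and after median centring (adjusted p = 0.0697).

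Crispld2 encodes a secreted cysteine-rich protein known to bind lipopolysaccharide, and it had the widest changes of the 6 genes. At 4 h after acetaminophen it read 10.13, 13.01, 11.62 and 13.07, against 9.40, 8.09, 8.76 and 8.90 in vehicle rats, only 2 of which exceeded the signal-to-noise limit. All 4 treated rats lay above all vehicle rats. Crispld2 rose 8.99-fold (3.17 ± 0.835, adjusted p = 0.0175), the largest absolute change of all tested probes at that time, and 3.78 on the log2 scale without rat 1 (adjusted p = 0.00302). The 4 h call was lost without rat 2, 3 or 4 of the treated group or without vehicle rat 2 (adjusted p = 0.0741, 0.0614, 0.0798 and 0.0544). At 12 h Crispld2 read 15.35, 15.54, 15.13 and 15.10, and at 24 h 15.32, 14.91, 15.03 and 15.95. It was 89.9-fold higher than in vehicle rats at 12 h (6.49 ± 0.835, adjusted p = 1.4e-07), again the largest change of all probes, and 91.2-fold higher at 24 h (6.51 ± 0.835, adjusted p = 1.04e-07). The folds divide by vehicle signals near the background, which limits how well their size is known. At 168 h the signal was 8.76, 7.54 and 10.13, with a change of 0.02 ± 0.901 (adjusted p = 0.993).

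After methyl parathion Crispld2 had the widest spread between rats of the 6 genes at 4, 12 and 24 h. At 12 h it read 14.29, 8.88, 14.24 and 13.34, against 8.83, 8.50, 6.97 and 9.47 in vehicle rats. Rats 1, 3 and 4 were far above every vehicle rat, and rat 2 was among the vehicle rats. The rise was 18.97-fold (4.25 ± 0.835, adjusted p = 0.00291), the largest of all probes, and 5.51 on the log2 scale without rat 2 (adjusted p = 3.68e-06). Only 2 of the 4 vehicle rats exceeded the signal-to-noise limit, which limits how well the size of this rise is known. At 24 h it read 11.07, 9.54, 9.05 and 12.71, and the change of 2.15 ± 0.835 did not pass (adjusted p = 0.167). The changes at 4 and 168 h were 1.69 ± 0.835 (95% confidence interval -0.00 to 3.39, adjusted p = 0.466) and 0.86 ± 0.901 (adjusted p = 0.531).

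The steps between neighbouring times show when each gene moved after acetaminophen. Crispld2 was above vehicle at 4 h and higher again at 12 h (step 3.32 ± 0.835, adjusted p = 0.00256), with no called step to 24 h. Anxa1 and Cebpd were first called at 12 h, with steps from 4 h of 3.30 ± 0.285 (adjusted p = 3.31e-10) and 2.09 ± 0.25 (adjusted p = 8.37e-08). Sgk1 rose by 0.68 ± 0.179 in that step (adjusted p = 0.00402) and again to 24 h, and Klf9 fell. In the step from 4 to 12 h, 4 genes rose and 1 fell, beside 26.3% of all probes called, and in the step from 12 to 24 h 1 gene rose, beside 6.96%. From 24 to 168 h all 6 genes moved back, 5 falling and Klf9 rising, beside 37.7% of all probes called. The changes over that step were -6.49 ± 0.901 for Crispld2 (adjusted p = 5.22e-07), -1.77 ± 0.27 for Cebpd (adjusted p = 2.48e-06) and -0.93 ± 0.193 for Sgk1 (adjusted p = 0.000203). These steps share groups with the comparisons with vehicle.

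After methyl parathion only Anxa1 was called in the step from 4 to 12 h (1.29 ± 0.285, adjusted p = 0.0308), beside 1.29% of all probes. That call was lost when any one of rats 1, 3 and 4 of the 12 h group or rats 1, 2 and 3 of the 4 h group was left out (adjusted p 0.0877 to 0.186). Without rat 2 of the 12 h group, Crispld2 (3.82, adjusted p = 0.00104), Fkbp5 (1.26, adjusted p = 0.0474), Cebpd (0.89, adjusted p = 0.0182) and Sgk1 (0.69, adjusted p = 0.0151) were called as well. That rat was the lowest of its group for these genes, so leaving it out raises the 12 h mean. Of 16 alternatives, 2, 1, 2 and 2 called the steps of these genes, with adjusted p up to 0.339, 0.553, 0.459 and 0.539. From 12 to 24 h 0 of the 6 genes were called, beside 0.718% of all probes (2228 at an unadjusted p under 0.05). Without rat 2 of the 12 h group, which again raises the 12 h mean, Crispld2 (-3.37, adjusted p = 0.00702), Anxa1 (-1.11, adjusted p = 0.0138) and Cebpd (-1.11, adjusted p = 0.00809) fell. Of 16 alternatives, 1, 1 and 3 called these falls, with adjusted p up to 0.575, 0.541 and 0.507. From 24 to 168 h 0 were called, beside 0.0312% of all probes (2417 at an unadjusted p under 0.05).

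**Figure D2:**
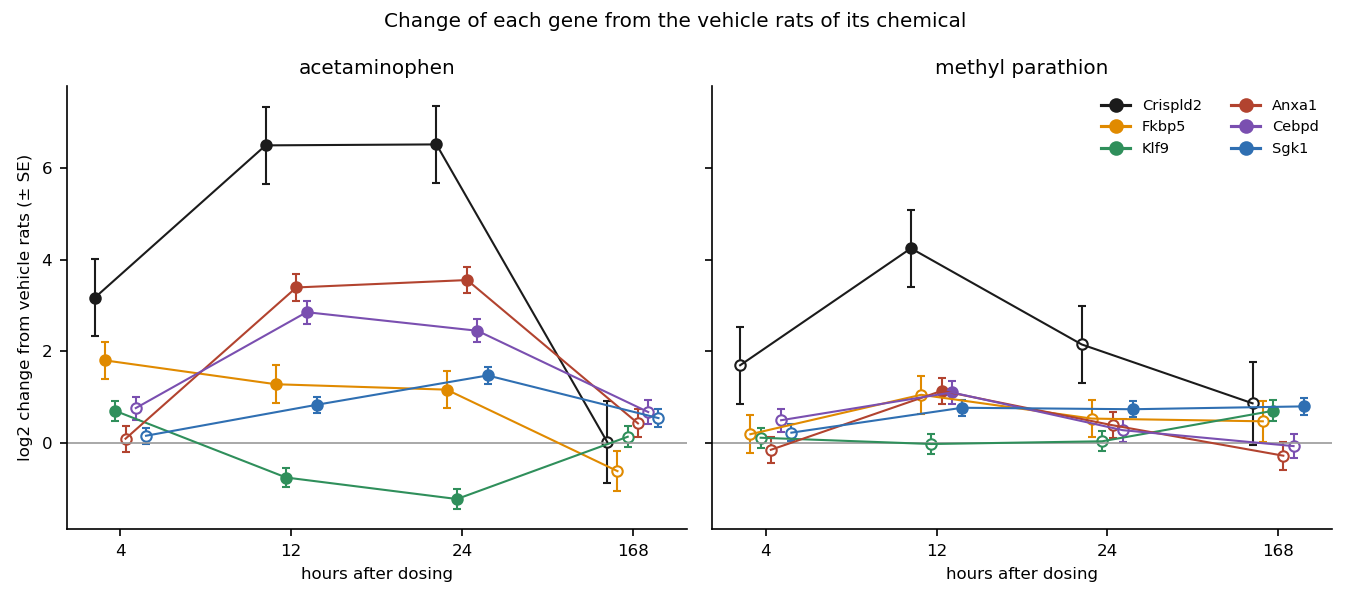
Change of each gene against the vehicle rats of the same chemical (log2 scale, error bars SE) at 4, 12, 24 and 168 h, which are evenly spaced and not to scale; filled symbols have a limma adjusted p under 0.05 and open symbols do not. After acetaminophen 3 genes are filled at 4 h, all 6 at 12 and 24 h, and none at 168 h. After methyl parathion 4 genes are filled at 12 h, Sgk1 at 24 h, and Klf9 and Sgk1 at 168 h.

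The chemicals were compared by the difference of their changes, each against its own vehicle rats. At 4 h 0 of the 6 genes and 0% of all probes differed (1879 at an unadjusted p under 0.05). The widest difference was that of Fkbp5, 1.61 ± 0.579 (adjusted p = 0.243), which passed without rat 1 of the acetaminophen group (2.11, adjusted p = 0.0236). At 12 h Anxa1 and Cebpd had risen more after acetaminophen, beside 11.4% of all probes called. Their differences were 2.25 ± 0.403 (adjusted p = 0.000505) and 1.75 ± 0.354 (adjusted p = 0.0016), and 1.89 (adjusted p = 0.00145) and 1.47 (adjusted p = 0.00587) without rat 2 of the methyl parathion group. For Crispld2 the difference at 12 h was 2.24 ± 1.18 (adjusted p = 0.237), or 0.98 without that rat (adjusted p = 0.62). For Fkbp5 and Sgk1 it was 0.23 and 0.07 at that hour, with adjusted p of 0.87 and 0.923.

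At 24 h 5 of the 6 genes differed between the chemicals, beside 25.7% of all probes. Crispld2 (4.36 ± 1.18, adjusted p = 0.00562), Anxa1 (3.17 ± 0.403, adjusted p = 5.97e-07), Cebpd (2.17 ± 0.354, adjusted p = 2.43e-05) and Sgk1 (0.74 ± 0.253, adjusted p = 0.0287) had risen more after acetaminophen. The difference of Klf9 was -1.26 ± 0.306 (adjusted p = 0.00221). Klf9 had fallen after acetaminophen, and its change after methyl parathion was 0.04 and not called. The Sgk1 call was lost without any one of 6 rats: acetaminophen vehicle rat 2 (adjusted p = 0.081), acetaminophen rat 3 (0.0589), methyl parathion vehicle rats 2 and 4 (0.0531 and 0.0629) and methyl parathion rats 1 and 3 (0.0516 and 0.0598). Median centring ended the call of Klf9 (adjusted p = 0.0871). The Fkbp5 difference was 0.63 ± 0.579 (95% confidence interval -0.55 to 1.81, adjusted p = 0.46), an interval that includes both no difference and a difference of more than 3-fold. At 168 h 0 of the 6 genes differed, beside 3.4% of all probes.

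**Figure D3:**
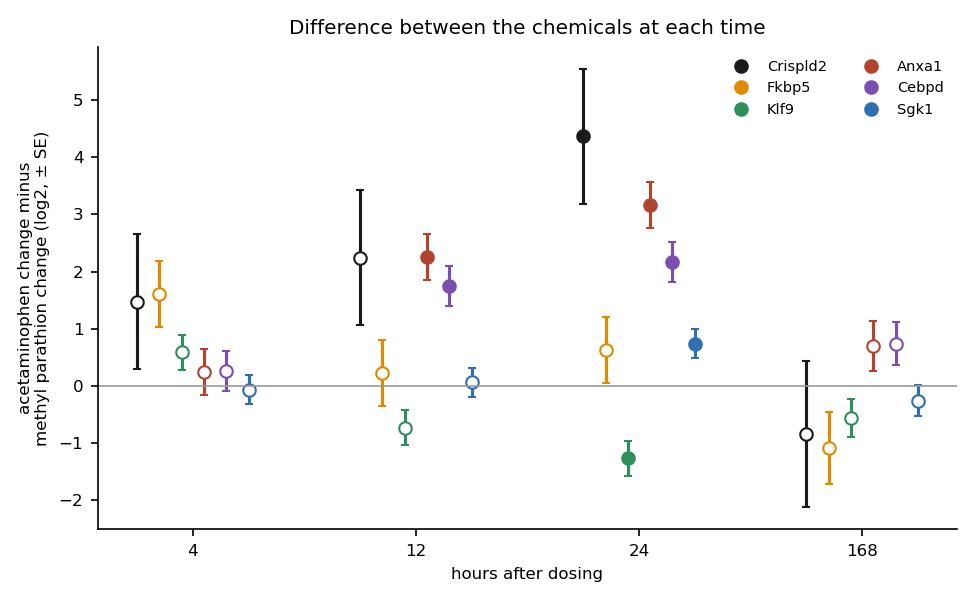
Acetaminophen change minus methyl parathion change of each gene (log2 scale, error bars SE) at 4, 12, 24 and 168 h, evenly spaced; filled symbols have a limma adjusted p under 0.05. At 24 h 5 of the 6 genes are filled, 4 above 0 and Klf9 below, and at 4 and 168 h none is.

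The 10 groups were also ranked by their mean for each gene. Crispld2 was highest in acetaminophen rats at 24 h (15.3 ± 0.467, SD, n = 4) and 12 h (15.28 ± 0.206), then in methyl parathion rats at 12 h (12.69 ± 2.58) and acetaminophen rats at 4 h (11.96 ± 1.39), and lowest in the methyl parathion vehicle rats (8.44 ± 1.06). Fkbp5 was highest in acetaminophen rats at 4 h (12.4 ± 1.03) and lowest in those at 168 h (9.99 ± 0.237, n = 3), with the methyl parathion rats at 12 h (11.37 ± 0.852) just under the acetaminophen rats at 24 h (11.77 ± 0.184). Klf9 was highest in acetaminophen rats at 4 h (14.81 ± 0.554), next in methyl parathion rats at 168 h (14.61 ± 0.462, n = 3), and lowest in acetaminophen rats at 24 h (12.89 ± 0.395). Anxa1 and Cebpd had the same 3 groups on top, acetaminophen at 12 and 24 h and methyl parathion at 12 h. Sgk1 was highest in acetaminophen rats at 24 h (14.15 ± 0.158) and lowest in the methyl parathion vehicle rats (12.44 ± 0.191), and its means after methyl parathion at 12, 24 and 168 h (13.21, 13.17 and 13.24) lay within 0.1 of each other. Neighbours in these orders whose means lie closer than their SD do not differ beyond the spread of the rats. Crispld2 at 12 and 24 h after acetaminophen is such a pair (difference 0.02, SE 0.835).

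Other genes of the glucocorticoid pathway were read from lists that were chosen with earlier results of these data known, and they are described by counts. Of 27 other genes known to be induced by glucocorticoids, 15 were on the array and 9 were tested. After acetaminophen 1 of the 9 rose at 4 h, 5 rose at 12 h, 5 rose and 1 fell at 24 h and 1 fell at 168 h, beside 6.58%, 34.3%, 35.6% and 11.1% of all probes called in either direction. After methyl parathion 0 were called at 4 h, 2 rose at 12 h, 0 were called at 24 h and 1 fell at 168 h, beside 0%, 8.04%, 2.38% and 18.2% of all probes. The median changes after acetaminophen were 0.42, 1.12, 0.75 and -0.33 in order of time, and after methyl parathion -0.08, 0.65, 0.01 and -0.28. The gene that rose at 4 h was Il1r2, the decoy receptor of interleukin 1, which neutrophils are known to carry. It read 14.12, 16.40, 15.25 and 15.82 at 4 h and 19.32, 19.40, 18.39 and 19.02 at 24 h after acetaminophen, against 12.75, 12.46, 12.89 and 12.67 in vehicle rats. Its changes were 2.71 ± 0.525 at 4 h (adjusted p = 0.00237) and 6.34 ± 0.525 at 24 h (adjusted p = 1.5e-11). At 12 h after methyl parathion Il1r2 read 16.81, 13.41, 16.58 and 16.07, against 12.52, 12.53, 12.52 and 13.99 in vehicle rats (2.83 ± 0.525, adjusted p = 0.00221), and rat 2 was again the lowest. Without rat 1 of the 4 h group the change of Il1r2 at 4 h was 3.13 (adjusted p = 0.000122), and without rat 2 that after methyl parathion was 3.60 (adjusted p = 3.47e-06). With only the arrays compared in the fit neither of these calls passed (adjusted p = 0.0794 and 0.0635), nor did any other tested probe in these comparisons.

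Dusp1, a phosphatase that switches off MAP kinases, rose by 2.84 ± 0.31 at 12 h after acetaminophen (adjusted p = 8.31e-09), by 0.85 at 24 h (adjusted p = 0.0303) and by 1.10 at 12 h after methyl parathion (adjusted p = 0.0248). Per2, a clock gene, rose by 2.0003 ± 0.295 at 12 h after acetaminophen (adjusted p = 1.5e-06), at an hour for which no vehicle rats were killed, and by 0.75 at 24 h (adjusted p = 0.0458). Cdkn1a, the cell cycle inhibitor p21, rose by 2.41 ± 0.495 at 12 h (adjusted p = 0.000193) and by 2.91 at 24 h (adjusted p = 1.29e-05), but was above background in only 1 of the 4 vehicle rats, which limits how well these sizes are known. Ddit4, an inhibitor of mTOR signalling, fell at 24 h (-1.07 ± 0.263, adjusted p = 0.00137). Tsc22d3, known as GILZ, was not called, with a change of 0.51 ± 0.207 at 12 h after acetaminophen (adjusted p = 0.0548). Leaving out single rats ended the calls of Dusp1 at 24 h (any one of acetaminophen rats 1 and 4 and vehicle rats 2, 3 and 4, adjusted p 0.0612 to 0.0822), of Per2 at 24 h (acetaminophen rats 2, 3 and 4 and vehicle rats 2, 3 and 4, adjusted p 0.0647 to 0.137) and of Dusp1 after methyl parathion (treated rats 1, 3 and 4 and vehicle rats 2 and 3, adjusted p 0.0791 to 0.102). Median centring ended the calls of Per2 at 24 h (adjusted p = 0.156) and of Dusp1 after methyl parathion (adjusted p = 0.0502).

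The receptor itself, Nr3c1, fell after both chemicals, at all 4 times after acetaminophen. In acetaminophen rats it read 15.36, 14.86, 14.31 and 14.48 at 4 h, 14.29, 14.26, 14.55 and 14.52 at 24 h and 14.53, 14.54 and 14.54 at 168 h, against 15.63, 15.15, 15.34 and 15.25 in vehicle rats. Every rat of 24 and 168 h lay below every vehicle rat. The changes were -0.59 ± 0.186 at 4 h (adjusted p = 0.0497), -0.53 at 12 h (adjusted p = 0.0237), -0.94 at 24 h (adjusted p = 0.000112) and -0.81 ± 0.201 at 168 h (adjusted p = 0.00982). After methyl parathion Nr3c1 fell at 12 h (-0.81, adjusted p = 0.00816) and at 168 h (-0.80, adjusted p = 0.00603), and its changes at 4 and 24 h were -0.55 and -0.47 (adjusted p = 0.282 and 0.175). Without rat 1 of the 4 h group the change at 4 h was -0.79 (adjusted p = 0.0029). The 4 h call was lost without any one of treated rats 2, 3 and 4 or of the 4 vehicle rats (adjusted p 0.054 to 0.258), the 12 h call without treated rat 1 or 3 or vehicle rat 1 (adjusted p 0.0589 to 0.0974), and median centring ended the calls at 4, 12 and 24 h after acetaminophen and at 12 and 168 h after methyl parathion (adjusted p 0.0575 to 0.476). Hsd11b1, the enzyme that turns inactive 11-keto steroids into active hormone inside cells, fell by 1.17 on the log2 scale at 12 h after acetaminophen (SE 0.235, adjusted p = 0.000134) and by 1.67 at 24 h (adjusted p = 5.33e-07).

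Among the receptor's chaperones 7 of 11 listed genes were tested, and they moved in both directions. Hsp90ab1, which holds the receptor ready for hormone, fell at 12 h (-0.75, adjusted p = 0.00776) and 24 h (-1.15, adjusted p = 8.14e-05) after acetaminophen, and the 12 h call was lost without rat 4 of that group (adjusted p = 0.0736) and after median centring (adjusted p = 0.171). Stip1, which links Hsp70 and Hsp90, fell at 12 h (-0.99, adjusted p = 4.12e-05) and rose 168 h after methyl parathion (0.74, adjusted p = 0.00867), where median centring ended the call (adjusted p = 0.113). St13, a cofactor of Hsp70, rose at 12 h (0.65, adjusted p = 0.000812; 0.0504 after median centring) and 24 h (0.83, adjusted p = 3.45e-05) after acetaminophen. Neither of the 2 tested coregulators was called in any comparison with vehicle. Of these, Ncoa2 was not above background in any acetaminophen rat or its vehicle rats, nor at 12, 24 and 168 h after methyl parathion.

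Of 12 inflammatory genes that glucocorticoids are known to lower, 9 were tested, and 4 rose and 1 fell at 12 h after acetaminophen, beside 13.8% of all probes called higher and 20.5% lower. Il1b, interleukin 1 beta, rose by 1.67 at 12 h (adjusted p = 2.18e-05) and 1.03 at 24 h (adjusted p = 0.00506), and Tnf, tumour necrosis factor, by 1.62 (adjusted p = 0.00568) and 2.22 (adjusted p = 0.000206). Tnf was above background in only 1 of the 4 vehicle rats, which limits how well the size of its change is known. Nos2, the inducible nitric oxide synthase, rose by 1.20 ± 0.307 at 4 h (adjusted p = 0.0147), 3.31 at 12 h (adjusted p = 3.63e-10) and 3.54 at 24 h (adjusted p = 3.73e-11). The chemokine Cxcl2 stood 110-fold higher at 24 h by group means (adjusted p = 1.32e-10). It was not above background in the vehicle rats, which limits how well that size is known. The gene that fell at 12 h was Icam1, an adhesion molecule. The 4 h call of Nos2 was lost without acetaminophen rat 2 or 4 or vehicle rat 4 (adjusted p = 0.0614, 0.0622 and 0.0706) and after median centring (adjusted p = 0.105). Il1b was also called 12 h after methyl parathion (0.94, adjusted p = 0.0403), but not without treated rat 1, 3 or 4 or vehicle rat 1, 2 or 3 (adjusted p 0.0791 to 0.17), nor after median centring (adjusted p = 0.0866).

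**Figure D4:**
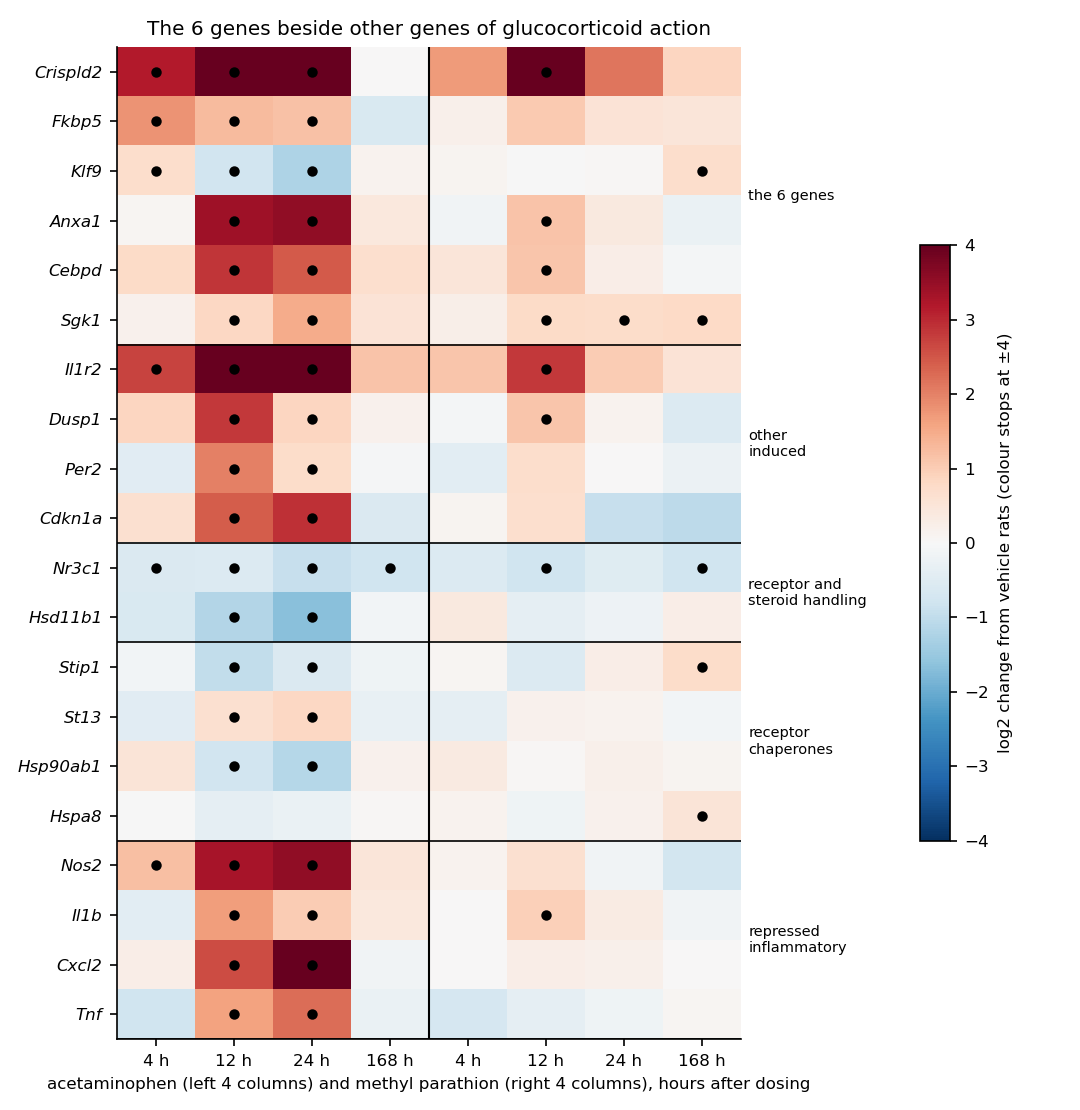
Heat map of the log2 change against vehicle rats for the 6 genes and the named genes of the pathway lists (rows) in the 8 comparisons (columns, acetaminophen and methyl parathion at 4, 12, 24 and 168 h); colour is cut at -4 and 4, and a dot marks a limma adjusted p under 0.05. The 12 and 24 h columns of acetaminophen hold most dots, and Crispld2 and Il1r2 are among the genes beyond the end of the scale there.

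The relatives of each gene did not all move with it. Of the annexins 7 were tested besides Anxa1 itself, and Anxa2 rose by 1.47 at 12 h (adjusted p = 8.09e-08) and 1.58 at 24 h (adjusted p = 1.66e-08) after acetaminophen, Anxa3 by 2.62 (adjusted p = 7.78e-06) and 4.45 (adjusted p = 3.47e-10), while Anxa6 fell by 0.59 (adjusted p = 0.0196) and 0.60 (adjusted p = 0.0161) on the log2 scale. The calls of Anxa6 ended without rat 2 of the 12 h group or vehicle rat 2 (adjusted p = 0.0668 and 0.0577), without rat 1 or 4 of the 24 h group (adjusted p = 0.073 and 0.0759), and after median centring (adjusted p = 0.102 and 0.111). S100a11, a calcium-binding partner of Anxa1, rose by 2.13 at 24 h (adjusted p = 1.85e-11). Of 4 tested C/EBP genes, Ddit3, which encodes the stress factor CHOP, was called in the most comparisons, and rose already at 4 h after acetaminophen (0.94, adjusted p = 0.00283; 0.0761 after median centring). Cebpb, the beta form, rose by 0.71 at 12 h (adjusted p = 0.00249) and 0.99 at 24 h (adjusted p = 4.18e-05). Cebpe, a factor of granulocyte maturation, fell at 12 h after acetaminophen (-1.11, adjusted p = 0.000748) and rose 168 h after methyl parathion (1.39, adjusted p = 0.00115).

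Of the 4 tested Krüppel-like factors besides Klf9, Klf5, Klf6 and Klf10 rose at 12 and 24 h after acetaminophen, where Klf9 fell. Only Klf4 fell there too. Klf5 rose by 3.50 at 12 h (adjusted p = 1.1e-06) and 4.23 at 24 h (adjusted p = 2.84e-08) after acetaminophen, whereas Klf4 fell by 1.15 (adjusted p = 0.000881) and 1.79 (adjusted p = 1.82e-06) on the log2 scale. Klf5 was above background in 2 of the 4 vehicle rats. Of 2 tested FK506-binding relatives of Fkbp5, Fkbp1b fell at 168 h after methyl parathion (-1.88, adjusted p = 0.0335), a call lost without rat 2 or 3 of that group or vehicle rat 1 or 2 (adjusted p = 0.12, 0.148, 0.07 and 0.0831). The partners of Sgk1 moved in both directions. Gsk3b, a kinase of glycogen and Wnt signalling, rose at 4 h after acetaminophen (1.18, adjusted p = 0.000676) and at 12 h (0.75, adjusted p = 0.00277). Ndrg1, a known substrate of Sgk1, rose at 12 h (0.66, adjusted p = 0.00109, and 0.0601 after median centring). Pdpk1, another listed partner, was called in 4 comparisons with vehicle. Over all settings its change was 0.23 to 0.43 at 24 h and -0.84 to -0.32 at 168 h after acetaminophen. After methyl parathion it was -0.58 to -0.36 at 12 h and -0.52 to -0.29 at 168 h. These calls of Pdpk1 were lost in 7, 6, 10 and 11 alternatives, in that order.

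The genes whose log2 values over the 38 arrays were most like each of the 6 were found among 3337 named genes by Pearson's r, which is given as a description. For Crispld2 they were Il1r2 (r = 0.959), Hk3, a hexokinase (0.939), and Lilrb2, a leukocyte receptor (0.936), and within groups these correlations were 0.894, 0.812 and 0.809. For Fkbp5 they were Ptp4a1, a phosphatase (0.864), Slc28a2, a nucleoside transporter (0.843), and Dnajc3, a co-chaperone of the endoplasmic reticulum (0.837). For Klf9 they were Prim1, a DNA primase (0.851), Bbc3, the apoptosis factor Puma (0.849), and Entpd5, a nucleotidase (0.841), of which Prim1 had an r of only 0.389 within groups. Anxa1 was most like Tspo, a mitochondrial membrane protein (0.985), Nqo1, a quinone reductase (0.982), and Ccr1, a chemokine receptor (0.976). Cebpd was most like Myd88, an adaptor of Toll-like receptors (0.979), Lrg1 (0.973) and Dgat2, an enzyme of triglyceride synthesis (0.97), and Sgk1 was most like Osgin1 (0.912), Gripap1 (0.906) and Oasl (0.905). Between the 6 genes themselves r was 0.948 for Anxa1 and Cebpd, 0.904 for Crispld2 and Cebpd, 0.757 for Crispld2 and Fkbp5, -0.762 for Klf9 and Anxa1, and 0.0117 for Fkbp5 and Klf9. The arrays share treatment groups and a common scaling, which all these correlations include.

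Markers of some blood cell types were also called at times when the genes were, and those of others mostly were not. All 7 tested of 13 listed neutrophil markers rose at 12 and at 24 h after acetaminophen, with a mean log2 level of 15.6 to 15.93 at 12 h and 16.58 to 16.75 at 24 h, against 13.28 to 13.65 in vehicle rats. Of all probes, 2.9%, 13.8% and 14.7% were called higher and 3.68%, 20.5% and 20.9% lower at 4, 12 and 24 h after acetaminophen. Of 8 listed monocyte markers 3 were tested, of which Cd14 and Ccr2 rose at 12 and 24 h. Cx3cr1, by contrast, fell at 24 h (-1.90, adjusted p = 0.00587) and was 4.03-fold lower at 168 h by group means (adjusted p = 0.0263). At 168 h Cx3cr1 was not above background, which limits how well that size is known. The level of the 3 was 11.26 to 12.02 at 12 h, against 10.46 to 10.53 in vehicle rats. At 4 h, where Crispld2, Fkbp5 and Klf9 were called, 0 of the 7 neutrophil markers were called, and their level was 13.08 to 14.22. Lcn2, a marker of the neutrophil list, was not above background in vehicle rats. All 7 tested T-cell markers fell at 12 and 24 h after acetaminophen and 6 of 7 fell at 4 h, with levels of 13.32 to 14.12 at 4 h, 12.52 to 12.93 at 12 h and 12.59 to 13.26 at 24 h, against 14.34 to 14.59 in vehicle rats. All 3 tested B-cell markers fell at 4 h, with levels of 8.39 to 12.01, against 12.09 to 12.66 in vehicle rats. The B-cell levels were also below those of all vehicle rats at 12 h (10.63 to 10.97) and 24 h (8.86 to 10.46). Both tested platelet markers rose at 4 h, with levels of 11.68 to 13.92, against 10.51 to 12.39 in vehicle rats. Of 4 tested erythroid markers 1, Rhag, rose at 4 h and 0 were called later, and of 3 tested markers of eosinophils, basophils and mast cells 2 fell at 12 h. All 7 natural killer markers fell at 24 h, with levels of 13.57 to 14.32, against 15.29 to 15.56 in vehicle rats. Of 5 tested hepatocyte markers 4 rose at 24 h, with levels of 11.21 to 12.11, against 9.06 to 9.60 in vehicle rats. By group means Alb, which encodes albumin, was at least 51.6-fold higher than in vehicle rats. It was not above background there, and this bound leaves out the spread between rats.

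At 12 h after methyl parathion, 2 of the 7 neutrophil markers rose (S100a8 and Mmp9), with levels of 13.36 to 14.89, against 13.25 to 14.02 in vehicle rats, and all 7 T-cell markers fell, beside 3.12% of all probes called higher and 4.92% lower. Rat 2 of that group, lowest for Crispld2, Fkbp5, Anxa1, Cebpd and Sgk1, also had the lowest neutrophil level of its group (13.36) and the highest T-cell level (14.01). At 168 h after acetaminophen 1 neutrophil marker, Mmp9, rose and 3 T-cell markers fell, beside 3.08% of all probes called higher and 8.02% lower, at neutrophil levels of 13.41 to 14.14. The part of these cell types in the changes of the 6 genes was not tested.

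**Figure D5:**
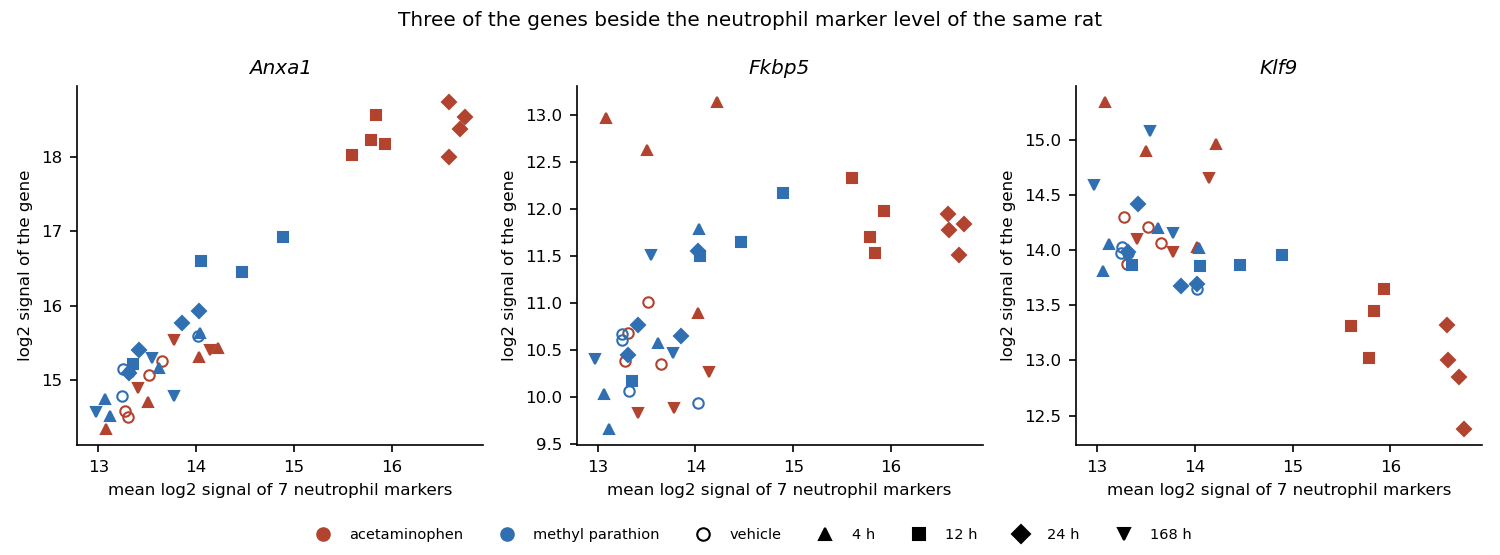
Log2 signal of Anxa1, Fkbp5 and Klf9 (vertical, 1 panel each) against the mean log2 level of the 7 tested neutrophil markers (horizontal), 1 point per rat, with colour for the chemical, symbol shape for the time and open circles for vehicle rats. The 8 acetaminophen rats of 12 and 24 h lie to the right of all other rats, and the 4 h acetaminophen rats reach high Fkbp5 and Klf9 values at neutrophil levels of 13.08 to 14.22.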

How the data were processed

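RNA of blood leukocytes from 38 rats was measured on 38 single-channel arrays. Per the file headers, the authors deposited for each array a background-subtracted intensity per probe, not scaled between arrays, and a signal-to-noise ratio, used here as a score. Quality flags, deposited as a column of other kind with no measurement unit, marked spots. The log2 values of the series table that the authors deposited equalled log2 of the quantile-normalised intensities. The genome build of the array and its scanner batches are not given in the sources used here, so no batch could be tested.

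Here the 26857 gene probes were quantile-normalised together, a floor at the 5th percentile was set, and log2 was taken. Spots with a flag of 5000 or more (0.9598% of values) were set missing, and none of the 322 control spots entered. A probe was tested if most arrays of some group had a signal-to-noise ratio of 3 or more and every group kept 2 or more values, which held for 12805 probes and 3442 named genes. The fit across all probes, limma 3.58.1 under R 4.3.3, had the 10 groups as its only factor and let the prior variance depend on the mean (eBayes with a trend). The scripts were first tested on simulated data. The design followed the deposited labels: each treated group against the vehicle rats of its chemical, neighbouring times, the difference of the changes between chemicals, and the vehicle groups. All tests were two-sided. Benjamini-Hochberg adjustment covered the 12805 probes, and adjusted p under 0.05 counted as a call. The rats were separate animals, and p-values measure the spread between them. Comparisons that use the same vehicle rats share them.

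The 6 genes, the pathway lists and the cell type markers were chosen with earlier results of these data known. Besides the 6 genes, the text names the 3 genes most correlated with each. From each list it names genes among the up to 4 called in the most comparisons with vehicle, with Nr3c1 in any case. Anxa11, Cebpa and Hspa8 were also among these, and their changes are not described in the text. Tsc22d3, Ddit4, Icam1 and the marker genes were named after their values were seen. A marker level is the mean log2 value of a list's tested genes. Promoter windows came from RefSeq (GRCr8). The alternatives tried were a floor at the 1st percentile, the series table as deposited, median centring of arrays, no detection filter, only the arrays compared, one common prior variance, array weights, the replicate number as a block, all 8 vehicle rats as controls, and leaving out each rat in turn.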

Additional observations from a re-analysis of the deposited data

Results flagged for a closer look

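In 48 groups of 4 rats, Dixon's test at the 95% level singled out 2 values, both of Klf9, where chance gives about 1 in 20. Klf9 of methyl parathion vehicle rat 4 was 13.647, below the other 3 at 13.974 to 14.034. Klf9 of rat 1 in the 12 h methyl parathion group was 13.953, above the other 3 at 13.854 to 13.87, in a group whose whole range was narrower than 0.1.

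The difference between the changes after acetaminophen and methyl parathion passed the threshold in 7 of 24 tests (6 genes at 4 times). At 12 h it was 2.2544 for Anxa1 and 1.7499 for Cebpd. At 24 h it was 4.3626 for Crispld2, -1.2594 for Klf9, 3.166 for Anxa1, 2.1679 for Cebpd and 0.73681 for Sgk1. The chemicals were each given at 1 dose, and the part of dose in these differences was not tested.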

How the results depend on the processing

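Over all alternatives, 1878 of 2028 values of the 6 genes kept their direction and their side of the threshold, 68 lost a call, 28 gained one and 54 changed sign, none of the last called in either setting; causes were not tested. Counts of the 6 genes called that changed by over 1.5 times were as follows. Median centring, after which the median change of all probes was -0.378 at 168 h after acetaminophen (-0.0614 after quantile normalisation), gave 2 genes at 12 h and 0 at 24 and 168 h after methyl parathion, 0 in the step from 12 to 24 h after acetaminophen and 0 in that from 4 to 12 h after methyl parathion. Without the detection filter 1 gene was called 168 h after methyl parathion. With only the arrays compared, 0 were called at 4 h and 1 at 168 h after acetaminophen, 0 at 12 and 24 h after methyl parathion and 0 in the step from 4 to 12 h after it, where one common prior variance also gave 0. Array weights gave 2 in the step from 12 to 24 h after acetaminophen, 4 and 1 in the first and second step after methyl parathion, and 1 difference at 4 h. All 8 vehicle rats as controls gave 1 gene 168 h after acetaminophen.

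With the replicate number as a block 2 genes were called 168 h after acetaminophen (Cebpd 0.74, Sgk1 0.60), and Cebpd passed at 4 h. Same-numbered rats correlated at -0.399 to 0.228 over 30 pairs of rats, above 0.1 in 8. These correlations are too scattered to settle whether same-numbered rats shared a handling step, which is not known.

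Leaving out 1 rat gave 0 to 3 genes at 4 h, 5 to 6 at 12 and 24 h and 0 to 1 at 168 h after acetaminophen, 5 to 6, 0 to 1 and 6 in its steps, 1 to 5, 0 to 1 and 1 to 2 at 12, 24 and 168 h after methyl parathion, 0 to 5, 0 to 3 and 0 to 1 in its steps, and 0 to 1, 2, 4 to 5 and 0 for the differences at 4, 12, 24 and 168 h.

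Signs changed only for values that were not called in either setting. With median centring these were Crispld2 (-0.0853) and Klf9 (-0.255) at 168 h after acetaminophen, Anxa1 at 4 h (0.0245) and Klf9 at 24 h (-0.174) after methyl parathion, the Klf9 step from 12 to 24 h (-0.000665) and the Anxa1 difference at 4 h (-0.0224). With array weights they were Sgk1 at 4 h (-0.0615) and Crispld2 at 168 h (-0.0211) after acetaminophen, the Crispld2 step from 12 to 24 h (-0.147), Klf9 at 24 h (-0.0271) and Cebpd at 168 h (0.0158) after methyl parathion, the Fkbp5 step from 24 to 168 h (0.0666) and the Sgk1 difference at 12 h (-0.0547). With the block they were Cebpd at 168 h (0.00129) and that Fkbp5 step (0.00508). With all 8 vehicle rats they were Anxa1 at 4 h after acetaminophen (-0.0598) and methyl parathion (0.00505), and Klf9 at 24 h (-0.0644) and Cebpd at 168 h (0.081) after methyl parathion.

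Leaving out 1 rat changed signs within these ranges: after acetaminophen Anxa1 at 4 h (-0.0656 to 0.295), Crispld2 (-0.636 to 0.655) and Klf9 (-0.0673 to 0.267) at 168 h, and the steps from 12 to 24 h of Crispld2 (-0.196 to 0.153) and Fkbp5 (-0.236 to 0.0308); after methyl parathion Fkbp5 (-0.234 to 0.476) and Anxa1 (-0.355 to 0.0165) at 4 h, Klf9 at 12 h (-0.11 to 0.0194) and 24 h (-0.121 to 0.126), Cebpd at 168 h (-0.219 to 0.166), and the steps of Klf9 (-0.0987 to 0.149) and Sgk1 (-0.184 to 0.106) from 12 to 24 h and of Fkbp5 (-0.418 to 0.174) and Sgk1 (-0.0522 to 0.183) from 24 to 168 h; the differences of Sgk1 at 4 h (-0.214 to 0.0476) and 12 h (-0.0856 to 0.203) and of Fkbp5 at 12 h (-0.171 to 0.495); and Crispld2 between the vehicle groups (-0.144 to 0.688).

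Of all probes, 842 were called 4 h after acetaminophen, against 179 without rat 3 and 1624 without rat 1 of that group, and 1029 were called 12 h after methyl parathion, against 253 without rat 1 and 1909 without rat 2. Array weights raised these counts to 2113 and 3719, and with only the arrays compared both were 0. For the named pathway genes 1176 values kept direction and side, 189 lost a call, 2 gained one and 0 changed sign. Signals near background limit Crispld2 in vehicle rats, and the number of rats per group limits the precision of every change.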
